A study of Mus musculus with 240 samples.

Results

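The 80 libraries described here are the pool-and-split controls of a study of mouse oligodendrocyte precursor cells (OPCs), 40 from 12 and 40 from 90 days after tamoxifen treatment began (12 and 90 dpi). They are all samples whose titles name them as pooled, and they make up 80 of the 240 libraries of the series. Each time has 4 sets of 10 libraries, and a set is named by the sex and the number that end its title: female 1, female 2, male 1 and male 2. Every library carries the genotype Trp53-/- Nf1-/- and was made from cells cut by laser capture microdissection out of 8 µm cryosections of brain. The cells' polyadenylated RNA was reverse transcribed, amplified by PCR and made into Nextera XT libraries, and spike-in RNAs (ERCC) were counted beside the mouse genes. Both times carry the same deletions and both follow tamoxifen, so the comparison is of an early with a later time after induction and not of mutant with normal cells. The labels used here do not name the driver of the recombinase, the age of the mice, the number of cells in a pool, or whether a set is 1 animal. The p-values below therefore measure only the spread between these sets. The rest of the series consists of 112 libraries of 10 cells from the same times and set names, and of bulk libraries from mutant and wild-type mice, of which 18 are from mutant mice at 12 and 90 dpi.

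OPCs are the dividing glial progenitors of the adult brain. They carry the receptor Pdgfra and the proteoglycan NG2 (gene Cspg4) with the transcription factors Olig1, Olig2 and Sox10, and they mature through a committed stage into myelinating oligodendrocytes. Nf1 encodes neurofibromin, which switches off Ras signalling, and Trp53 encodes the tumour suppressor p53; OPCs that lose both can give rise to glioma. In a pool-and-split control, captured cells are combined first and then divided, so that aliquots of 1 pool share a mean cell content and differ by the sampling of few RNA molecules and by amplification.

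Library totals without ERCC ran from 1.91 to 5.16 M (M, 1000000 counts), and the mean per set was 4.26 ± 0.259 M at 12 dpi and 3.38 ± 0.378 M at 90 dpi (SD, n = 4 sets each). Every 90 dpi set lay below every 12 dpi set, a difference of -0.874 M with an exact two-sided permutation p of 0.0286, the smallest that 70 assignments of 8 sets can give (0.114 adjusted over 4 such measures). Genes with a count above 0 averaged 8493 per library at 12 dpi and 8893 at 90 dpi (exact permutation p 0.514). ERCC counts took 4.33% and 6.67% of the total (exact permutation p 0.4), with 0.450% in set female 2 at 90 dpi. As a check of the labelled sex, the summed level of Ddx3y and Eif2s3y was above the highest female library in 37 of 40 male libraries. Of the 34623 genes in the table, 14123 had no count in any of the 80 libraries, 670 had counts in all and 8563 in at least 50% of them.

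The first question was which genes differed between 90 and 12 dpi when the counts of the 10 aliquots of a set were added and the 8 sums compared. With edgeR's quasi-likelihood test, with sex as a covariate, 0 of 14235 tested genes had a Benjamini-Hochberg adjusted p under 0.05, which is 0% of those tested. The smallest adjusted p was 0.0808. At an unadjusted p under 0.05 there were 1128 genes, 534 higher at 90 dpi (3.75% of tested genes) and 594 lower (4.17%). Sets of the 2 times did not overlap for 490 genes with higher levels at 90 dpi (3.44%) and 341 with lower levels (2.4%). The common biological coefficient of variation, which is the spread between sets beyond counting, was 1.13. limma on the set means of log2(CPM + 1) over aliquots also called 0 genes, with 985 higher (6.92%) and 551 lower (3.87%) at an unadjusted p under 0.05. DESeq2 called 953 genes, 434 higher and 519 lower. In 454 of these more than 50% of the count came from 1 of the 80 libraries, and the median share held by 1 library was 48.1%. Among the 14235 genes tested in edgeR, 2048 were past 50% and the median share was 24.1%. DESeq2 tested 20504 genes, sparser ones among them, and 695 of its 953 calls were tested in edgeR. The 2 median shares are thus of unlike gene sets. Below, levels are counts per 1000000 (CPM) of the summed aliquots, set values are in the order female 1, female 2, male 1, male 2, and a log2 fold change is 90 against 12 dpi with its standard error (SE) from edgeR. Each count of list members at an unadjusted p under 0.05 is to be read beside the 3.75% higher and 4.17% lower of all tested genes.

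The deleted genes were sparse in these aliquots. Nf1 (ENSMUSG00000020716, chromosome 11, 79339693 to 79581612) had 1.12, 239, 0.542 and 4.30 CPM in the 12 dpi sets and 9.72, 1.72, 0.637 and 7.33 CPM in the 90 dpi sets. One aliquot of set female 2 at 12 dpi, at 2632 CPM, held 88.7% of all Nf1 counts of the 80 libraries, and the other sets overlapped. The log2 fold change was -1.84 (SE 2.20, unadjusted p 0.423, adjusted p 0.889), and it was 1.29 without that set. Trp53 (ENSMUSG00000059552, chromosome 11, 69580359 to 69591873) had 0.674, 1.46, 1.97 and 0.684 CPM at 12 dpi and 5.75, 17.6, 1.46 and 1.65 CPM at 90 dpi. The highest 90 dpi set was female 2, the times overlapped, and the log2 fold change was 1.84 (SE 1.37, unadjusted p 0.211, adjusted p 0.782). It was detected in 28 of 40 aliquots at 12 dpi and 39 of 40 at 90 dpi. Gene counts do not separate the deleted exons from the rest of either transcript, so these values do not check the deletion.

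The genes that define OPCs were present at both times and none passed the test over time. Olig1 (ENSMUSG00000046160, chromosome 16, 91269772 to 91271933), a lineage transcription factor, was detected in every aliquot, with 188, 434, 276 and 510.5 CPM at 12 dpi and 674, 485, 415 and 572 CPM at 90 dpi. The 90 dpi sets lay toward the upper end and the times overlapped, with a log2 fold change of 0.61 (SE 0.38, unadjusted p 0.141, adjusted p 0.740). Olig2 (ENSMUSG00000039830, chromosome 16, 91225550 to 91228677), its partner factor, had 17.3, 10.1, 19.0 and 12.8 CPM and then 29.2, 35.5, 32.5 and 20.4 CPM, so that every 90 dpi set was above every 12 dpi set. The set means were 14.8 ± 4.06 and 29.4 ± 6.51 CPM (SD, n = 4 sets). Its fitted log2 fold change was 0.99 (SE 0.78, unadjusted p 0.237, adjusted p 0.793). Cspg4 (ENSMUSG00000032911, chromosome 9, 56865033 to 56899870), the NG2 proteoglycan, was also in every aliquot and stood at 246, 362, 216 and 72.3 CPM and 182, 369, 186 and 161 CPM. The times overlapped, and the log2 fold change was 0.06 (SE 0.45, unadjusted p 0.893, adjusted p 0.993), with the opposite sign in 4 of the 8 fits that leave out 1 set. Pdgfra (ENSMUSG00000029231, chromosome 5, 75152292 to 75198215), the growth factor receptor, had 11.9, 26.8, 4.42 and 14.2 CPM and 59.6, 26.1, 5.49 and 8.62 CPM. Set female 1 was the highest of the 90 dpi sets, and without it the log2 fold change of 0.37 (SE 0.93, unadjusted p 0.697, adjusted p 0.962) became -0.07.

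Sox10 (ENSMUSG00000033006, chromosome 15, 79154913 to 79164490), a factor needed through the whole lineage, had 33.3, 6.14, 11.7 and 24.3 CPM at 12 dpi and 31.3, 192, 194 and 33.0 CPM at 90 dpi. Sets female 2 and male 1 at 90 dpi were far above all others, and the remaining sets overlapped. The fitted log2 fold change was 2.58 (SE 0.90, unadjusted p 0.0175, adjusted p 0.591), and 29.5% of its counts came from 1 aliquot. Lhfpl3, a transmembrane gene used as an OPC marker, had 0.300, 0.570, 0.0217 and 2.65 CPM and 13.4, 13.4, 70.3 and 9.37 CPM without overlap. The log2 fold change was 4.92 (SE 1.5, unadjusted p 0.00862, adjusted p 0.580), with 56.8% of the counts in 1 aliquot and detection in 12 of 40 aliquots at 12 dpi and 28 of 40 at 90 dpi. Of the 16 OPC markers, all were tested, 10 had a higher fitted level at 90 dpi and 6 a lower one, 2 were higher at an unadjusted p under 0.05 (Sox10 and Lhfpl3) and 0 passed the adjusted threshold. Their median log2 fold change was 0.49, beside -0.03 over all tested genes. The summed level of the list was 1157, 1095, 1059 and 1107 CPM in the 12 dpi sets and 1819, 1814, 1506 and 1208 CPM in the 90 dpi sets, which did not overlap. In such samples of several cells, fewer cells of a type and less RNA per cell cannot be told apart.

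**Figure D1:**
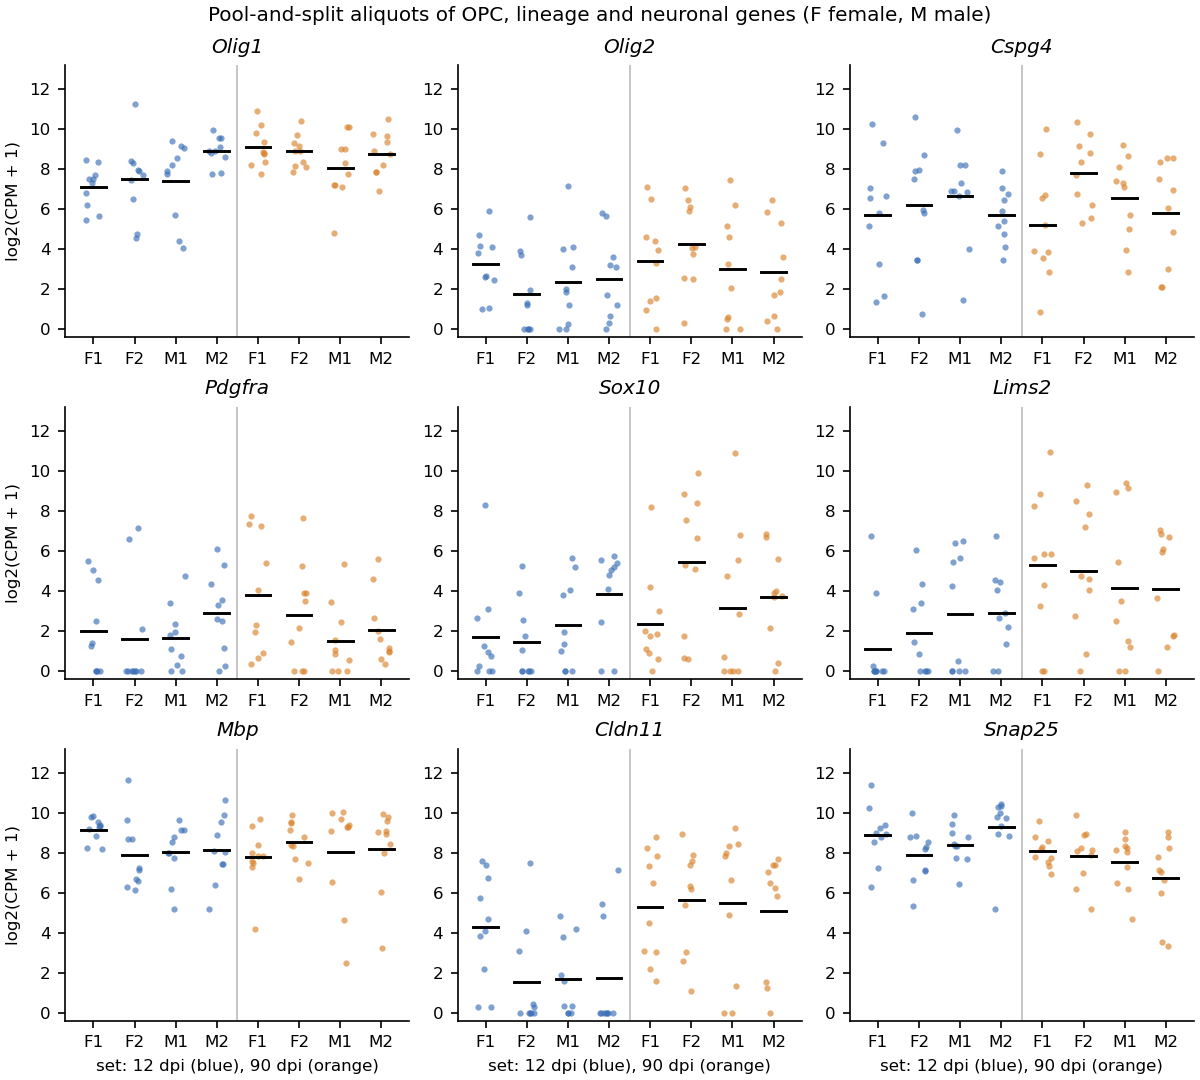
Log2(CPM + 1) of 9 genes in each of the 80 aliquots (points), by set on the horizontal axis with 12 dpi in blue and 90 dpi in orange. Olig1, Cspg4, Mbp and Snap25 were detected in every aliquot, while Pdgfra, Sox10, Lims2 and Cldn11 had many aliquots at 0 and others of the same set far above.

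Genes of committed OPCs, the stage between precursor and myelinating cell, were mostly higher at 90 dpi, with none past the threshold. Lims2 (ENSMUSG00000024395, chromosome 18, 31931325 to 31958619), an adaptor at integrin contacts, had 14.7, 14.5, 27.4 and 16.8 CPM in the 12 dpi sets and 289, 132, 180.4 and 53.5 CPM in the 90 dpi sets. Every 90 dpi set was above every 12 dpi set, and the log2 fold change was 3.13 (SE 0.67, unadjusted p 9.86e-04, adjusted p 0.580). Fyn, a kinase of oligodendrocyte maturation, had 93.6, 43.6, 113 and 67.5 CPM and 92.0, 209, 109 and 346 CPM. Its sets overlapped, since female 1 and male 1 were alike at both times, and the log2 fold change was 1.23 (SE 0.55, unadjusted p 0.0508, adjusted p 0.631). Bcas1, a marker of early myelinating cells, averaged 70.5 and 135 CPM, and Enpp6, an enzyme of newly forming oligodendrocytes, 38.2 and 155 CPM. Enpp6 was detected in 11 of 40 aliquots at 12 dpi and 28 of 40 at 90 dpi. Of the 12 genes listed, 11 were tested, 10 had a higher fitted level at 90 dpi, and only Lims2 was past an unadjusted p under 0.05. The exception was Tmem163, a zinc transporter, with a log2 fold change of -2.42 (SE 1.66, unadjusted p 0.175, adjusted p 0.761); Nkx2-2, a lineage factor, was too sparse to test. The median of the 11 was 1.27, and the summed level went from 322, 346, 298 and 270.4 CPM at 12 dpi to 601, 824, 977 and 907 CPM at 90 dpi without overlap.

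Myelin genes gave a less even picture. Cldn11 (ENSMUSG00000037625, chromosome 3, 31149920 to 31164324), the tight junction protein of myelin, had 67.4, 30.0, 6.26 and 20.7 CPM at 12 dpi and 121, 119, 183 and 92.5 CPM at 90 dpi, with no overlap. It was detected in 25 of 40 aliquots at 12 dpi and 37 of 40 at 90 dpi, and its log2 fold change was 2.33 (SE 0.74, unadjusted p 0.0109, adjusted p 0.580). Cnp, an enzyme of the myelin sheath, averaged 246 ± 246 and 714 ± 322 CPM (SD, n = 4 sets). Mbp, myelin basic protein, averaged 513 ± 158 and 445 ± 109 CPM, a log2 fold change of -0.19 (SE 0.35, unadjusted p 0.607, adjusted p 0.945). Of 18 myelin genes tested, 13 were higher and 5 lower at 90 dpi, 3 higher at an unadjusted p under 0.05, Cldn11 and Cnp among them, and the median was 0.91. The summed level overlapped, at 4667, 2620.3, 1879 and 1203 CPM and 2751, 3265, 5119 and 4132 CPM, since set female 1 at 12 dpi was above 3 of the 4 later sets.

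Markers of cells that can lie beside OPCs in a section were measured in the same way. Snap25 (ENSMUSG00000027273, chromosome 2, 136713453 to 136782428), a synaptic vesicle fusion protein of neurons, had 799, 395, 379 and 804 CPM at 12 dpi and 309, 279, 252 and 207 CPM at 90 dpi. Every 90 dpi set was below every 12 dpi set, and the log2 fold change was -1.19 (SE 0.37, unadjusted p 0.00909, adjusted p 0.580). Gad1, which makes the transmitter GABA, had 608, 1088, 877 and 1189 CPM and 596, 325, 349 and 618 CPM, with an overlap at 1 set of each time. Its log2 fold change was -0.99 (SE 0.34, unadjusted p 0.0161, adjusted p 0.585). All 14 neuronal genes were tested, with 6 higher and 8 lower, 2 lower at an unadjusted p under 0.05, and a median of -0.24. The summed neuronal level was 3728, 2769, 3114 and 3850.4 CPM in the earlier sets and 2373, 2609, 2211 and 2184 CPM in the later ones, which did not overlap. A large part of that difference lay in Gad1 and Snap25, which averaged 940 and 594 CPM at 12 dpi and 472 and 262 CPM at 90 dpi. The sum is thus not a measure of the 14 genes alike, of which 6 were higher. This lower neuronal sum stood beside the higher OPC and committed OPC sums in the same sets, and its part in them was not tested. None of the defining neuronal markers was at 0 in all libraries.

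Red blood cell genes were abundant and uneven. Hbb-bs, an adult beta globin, had 6372, 1425, 6707 and 2969.6 CPM and 1527, 1245, 2237 and 3113 CPM, and sets female 2 and male 2 at 12 dpi lay within the range of the later sets. The log2 fold change was -1.17 (SE 0.44, unadjusted p 0.0239, adjusted p 0.601). Hbb-bt, its near-identical neighbour, had 594, 199.8, 789 and 446 CPM and 207, 74.5, 181 and 139 CPM, with a log2 fold change of -1.72 (SE 0.49, unadjusted p 0.00572, adjusted p 0.580). Reads can be split between these 2 copies, so their separate values are uncertain. All 5 globin and haem genes were lower at 90 dpi, with a median of -1.17 and summed levels of 14874, 3928, 15546 and 6229 CPM against 3855, 3852, 5819.8 and 7972 CPM, which overlapped.

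The summed levels of glial and vascular markers overlapped between the times. Among astrocyte genes, the glutamate transporter Slc1a3 had 224, 155, 297 and 104 CPM at 12 dpi and 164, 63.7, 39.3 and 51.6 CPM at 90 dpi, and the secreted chaperone Clu had 1023, 1538, 885 and 985 CPM and 1849, 1370.1, 1539 and 2304 CPM. Slc1a3 was lower (log2 fold change -1.44 (SE 0.58, unadjusted p 0.0346, adjusted p 0.619)) and Clu higher (0.68 (SE 0.27, unadjusted p 0.0291, adjusted p 0.613)), each with overlapping sets. The 14 astrocyte genes were 6 higher and 8 lower, with a median of -0.11. Cx3cr1, the fractalkine receptor of microglia, had 70.8, 60.1, 52.0 and 16.8 CPM and 9.64, 12.3, 2.24 and 2.58 CPM without overlap. Its log2 fold change was -3.20 (SE 0.84, unadjusted p 0.00375, adjusted p 0.580), yet it was detected in 20 of 40 aliquots at 12 dpi and 28 of 40 at 90 dpi, and the mean over aliquots of log2(CPM + 1) gave a difference of -0.17. Laptm5, a lysosomal protein of blood and microglial cells, had 15.4, 27.1, 20.8 and 0.919 CPM and 44.7, 111, 12.2 and 107 CPM, with a log2 fold change of 2.16 (SE 1.06, unadjusted p 0.0693, adjusted p 0.658). Of 14 microglial genes 10 were higher and 4 lower, with a median of 0.26.

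Of 11 endothelial genes 3 were higher and 8 lower, with a median of -0.50, and of 11 mural genes 10 were tested, 2 higher and 8 lower, with a median of -0.55. Itm2a, a membrane protein of endothelium, had 28.9, 58.4, 149 and 70.5 CPM at 12 dpi and 30.4, 70.2, 0.0607 and 0 CPM at 90 dpi. Both male sets at 90 dpi were at or near 0 while both female sets lay within the earlier range, and the log2 fold change was -5.18 (SE 3.93, unadjusted p 0.218, adjusted p 0.785). Slco1a4, an organic anion transporter of the blood-brain barrier, averaged 90.5 ± 66.6 and 40.8 ± 24.5 CPM (SD, n = 4 sets). The pericyte genes Rgs5, a regulator of G-protein signalling, and Higd1b averaged 158 and 461 CPM at 12 dpi and 80.9 and 341 CPM at 90 dpi, with unadjusted p of 0.255 and 0.237. Summed mural levels were 757, 4603, 2243 and 1915 CPM and 1867, 1254, 1729.5 and 2087 CPM, and set female 2 at 12 dpi was the highest of the 8.

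**Figure D2:**
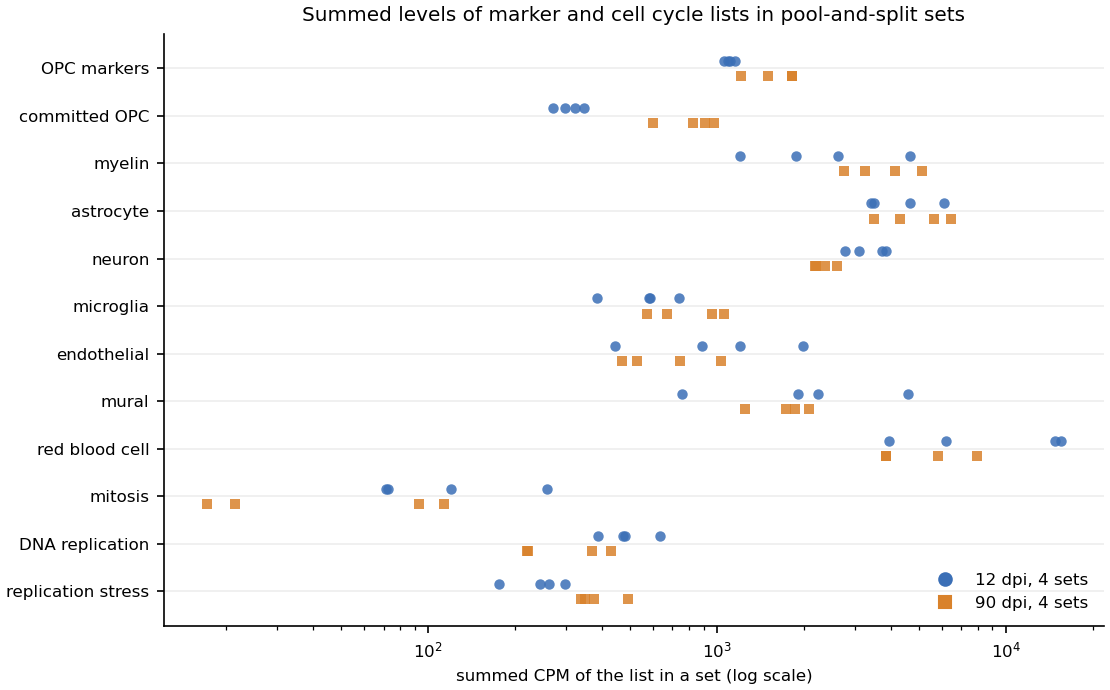
Summed CPM (log axis) of 12 gene lists in each pool-and-split set, 4 sets at 12 dpi (blue circles) and 4 at 90 dpi (orange squares). The OPC, committed OPC and replication stress sums of the later sets lie above those of the earlier sets and the neuronal sums below, while the other lists overlap.

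Of the 23 lists, the summed levels of 3 were higher without overlap (OPC markers, committed OPCs and replication stress) and that of 1 was lower (neurons). Among all 14235 tested genes, taken singly, 3.44% were higher and 2.4% lower without overlap. The sums were not tested. The replication stress list holds the kinase Atr, its partners and DNA repair genes, and summed to 243, 263, 176 and 297 CPM at 12 dpi and 350.3, 490.0, 337 and 376 CPM at 90 dpi. Of its 22 genes 19 were tested, 12 higher and 7 lower, with a median of 0.80. On means over aliquots of log2(CPM + 1) the median difference was 0.18. At an unadjusted p under 0.05, 3 were higher (Rpa1, Fanca and Atrip, the partner of Atr) and 1 lower. Rpa1 (ENSMUSG00000000751, chromosome 11, 75298166 to 75348324), a subunit of the protein that coats single-stranded DNA, had 0.275, 2.57, 1.04 and 0.598 CPM and 18.0, 25.3, 44.7 and 29.2 CPM, with no overlap. It was detected in 17 of 40 aliquots at 12 dpi and 28 of 40 at 90 dpi, and its log2 fold change was 4.71 (SE 1.18, unadjusted p 0.00281, adjusted p 0.580). Fanca, of the Fanconi anaemia repair complex, had 10.9, 0.348, 3.53 and 3.83 CPM and 120.3, 37.1, 49.3 and 16.4 CPM, also without overlap. The fitted log2 fold change was 3.48 (SE 1.13, unadjusted p 0.0121, adjusted p 0.580), with 46.2% of the counts in 1 aliquot.

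Genes of mitosis were near the limit of detection. Ccnb1, the mitotic cyclin, had 0, 39.7, 0.542 and 9.58 CPM at 12 dpi and 0, 0.0513, 0 and 0 CPM at 90 dpi, from 1728 counts against 2. The ratio of these rates was 687, with an exact 95% counting interval of 189.8 to 5674, and 72.4% of the counts lay in 1 aliquot. Set female 1 at 12 dpi had no count, so the times overlapped, and the unadjusted and adjusted p were 0.00532 and 0.580. Cdc20, an activator of the anaphase complex, had 0, 20.0, 0.0867 and 6.52 CPM and 0, 1.79, 0 and 0 CPM, with a log2 fold change of -5.74 (SE 3.03, unadjusted p 0.0884, adjusted p 0.684). Of the 20 mitosis genes 15 were tested, 4 higher and 11 lower, 1 lower at an unadjusted p under 0.05, and the median was -1.47. On means over aliquots of log2(CPM + 1) the median difference was -0.19. A listed gene was detected in a median of 9.5 of 40 aliquots at 12 dpi and 4.5 of 40 at 90 dpi, and the summed levels were 119.6, 258, 72.3 and 71.5 CPM and 113, 92.5, 17.1 and 21.4 CPM, which overlapped. Of the 20 DNA replication genes 16 were tested, 6 higher and 10 lower, with a median of -0.60, and of -0.05 on means over aliquots. Fen1, the flap endonuclease, had 3.12, 1.14, 18.4 and 25.2 CPM and 0.0530, 0.538, 0.0607 and 0.808 CPM without overlap (log2 fold change -4.24 (SE 1.57, unadjusted p 0.0228, adjusted p 0.601)). Gins2, of the replicative helicase, had 12.0, 102, 59.0 and 26.8 CPM and 24.9, 3.87, 6.22 and 9.98 CPM, and set female 1 was higher at 90 than at 12 dpi (-2.19 (SE 0.98, unadjusted p 0.0496, adjusted p 0.629)).

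The summed levels of p53 targets and of MAPK pathway outputs overlapped between the times. Of 22 p53 targets 18 were tested, 7 higher and 11 lower, with a median of -0.25 and none past an unadjusted p under 0.05. Bax, a promoter of cell death, had 71.2, 20.0, 49.7 and 73.1 CPM at 12 dpi and 11.8, 10.5, 17.9 and 70.8 CPM at 90 dpi, where male 2 matched the earlier sets (-1.25 (SE 0.82, unadjusted p 0.159, adjusted p 0.754)). Perp, a membrane protein, averaged 33.8 ± 22.7 and 9.73 ± 10.6 CPM (SD, n = 4 sets). Of 16 output genes of the MAPK pathway, which lies downstream of Ras, 12 were tested, 7 higher and 5 lower, with a median of 0.23 and none past an unadjusted p under 0.05. Etv4, a transcription factor of that pathway, had 0.649, 0.317, 4.72 and 0.748 CPM and 2.28, 80.3, 10.1 and 3.97 CPM, with female 2 at 90 dpi far above the rest (3.87 (SE 1.95, unadjusted p 0.0763, adjusted p 0.672)). Dusp5, a phosphatase that acts on ERK, had 79.0, 0.760, 24.6 and 26.7 CPM and 1.06, 5.56, 7.13 and 0.517 CPM, and its sets overlapped because female 2 at 12 dpi was low (-3.17 (SE 1.46, unadjusted p 0.0556, adjusted p 0.638)).

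Stress and immune lists were split in direction. Of 16 immediate early genes 14 were tested, 7 higher and 7 lower (median 0.19). Fosb had 4.17, 5.13, 5.07 and 0.406 CPM and 0.106, 1.05, 0.698 and 0.904 CPM, and Ier2 0.175, 0.982, 5.46 and 0.855 CPM and 11.3, 39.5, 20.0 and 2.58 CPM, so the 2 response genes leaned opposite ways, with unadjusted p of 0.0951 and 0.0485. Of 10 heat shock genes 6 were higher and 4 lower (median 0.05); the chaperone Hsp90aa1 averaged 1848 ± 575 and 2529.7 ± 429 CPM (SD, n = 4 sets), and Hspa1b, the inducible chaperone, had 59.7% of its counts in 1 aliquot. Of 18 interferon genes tested 9 were higher and 9 lower (median -0.09). Rtp4, an interferon-induced chaperone, had 0.0749, 0.0317, 0.759 and 0.705 CPM and 8.85, 13.4, 1.94 and 10.5 CPM without overlap, with detection in 9 of 40 aliquots at 12 dpi and 9 of 40 at 90 dpi (5.25 (SE 1.70, unadjusted p 0.0118, adjusted p 0.580)). Isg15, a ubiquitin-like interferon gene, had 8.52, 0.158, 7.48 and 0.150 CPM and 0.159, 1.18, 0.516 and 0.355 CPM, which overlapped.

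Antigen presentation genes of MHC class I were 2 higher and 6 lower of 8 tested (median -0.91, and -0.34 on means over aliquots of log2(CPM + 1)). B2m, the light chain, had 108, 164, 70.2 and 42.2 CPM and 10.8, 51.5, 19.6 and 60.0 CPM, and the heavy chain H2-K1 842, 831, 369 and 397 CPM and 219, 128, 362 and 569 CPM. Both overlapped, with unadjusted p of 0.117 and 0.106. Reactive glia genes were 4 higher and 4 lower of 8 tested (median -0.04). Vim, an intermediate filament, had 193, 109.9, 190.1 and 67.8 CPM and 44.3, 79.6, 49.5 and 112 CPM, with overlap. Cd44, an adhesion receptor, had 0.924, 74.6, 5.11 and 5.73 CPM and 0.159, 0.308, 0.819 and 0.775 CPM without overlap (-5.02 (SE 1.87, unadjusted p 0.0235, adjusted p 0.601)), but it was detected in 4 of 40 aliquots at 12 dpi and 8 of 40 at 90 dpi, with 79.4% of its counts in 1 aliquot. The 20 cholesterol synthesis genes were 10 higher and 10 lower (median 0.02). Its 2 members with the smallest p, Cyp51 and Lss, which act in sterol formation, averaged 20.3 and 11.5 CPM at 12 dpi and 55.5 and 34.6 CPM at 90 dpi, with unadjusted p of 0.150 and 0.159.

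Abundant genes of ribosomes and mitochondria are counted in all or nearly all aliquots and so rest on the most reads. Of 83 ribosomal protein genes tested 30 were higher and 53 lower, with a median of -0.11. At an unadjusted p under 0.05, 5 were higher and 9 lower, beside 3.75% and 4.17% of all tested genes. Rpsa (ENSMUSG00000032518, chromosome 9, 120127689 to 120132369), of the small subunit, had 3777, 2919.8, 2757 and 2369 CPM and 4056, 5717, 5364 and 7093 CPM, every later set above every earlier one. Its log2 fold change was 0.91 (SE 0.22, unadjusted p 0.00209, adjusted p 0.580). Rpl7a (ENSMUSG00000062647, chromosome 2, 26910764 to 26913318), of the large subunit, had 649.8, 569, 202 and 483 CPM and 146, 96.8, 141 and 162 CPM, every later set below (-1.75 (SE 0.43, unadjusted p 0.00249, adjusted p 0.580)). Ribosomal protein genes have many processed pseudogenes, so how counting divided reads among the copies is uncertain. Of 83 genes of oxidative phosphorylation 37 were higher and 46 lower (median -0.09). Atp5o, of the ATP synthase stalk, had 971, 497, 512 and 717 CPM and 1230.4, 1217, 1224 and 1378 CPM, and Ndufv1, of complex I, 368, 174, 249.7 and 189.7 CPM and 554, 598, 529.5 and 375 CPM. Neither overlapped, with log2 fold changes of 0.91 (SE 0.28, unadjusted p 0.00910, adjusted p 0.580) and 1.06 (SE 0.34, unadjusted p 0.0117, adjusted p 0.580). Of the 13 protein genes of the mitochondrial genome 1 was higher and 12 lower, with a median of -0.57 and 2 lower at an unadjusted p under 0.05. One was mt-Co1, of cytochrome c oxidase, with 7795, 11637, 8651 and 7712 CPM and 6765, 5889, 5284 and 5219 CPM without overlap (-0.63 (SE 0.15, unadjusted p 0.00210, adjusted p 0.580)). The other was mt-Atp6, with 13007, 23556, 17885 and 14836 CPM and 15259, 8256, 9286 and 13946 CPM and overlap. Some unprocessed pseudogenes were as abundant. The mean log2(CPM + 1) over aliquots was 15.4 for Gm28437 and 14.4 for Gm29216, beside 13.7 for mt-Atp6. Whether counting divided reads between such entries and the mitochondrial genes was not tested.

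The 10 genes with the smallest unadjusted p among those above the median level fell into 2 kinds. The first kind was detected in most aliquots. Sars (ENSMUSG00000068739, chromosome 3, 108424865 to 108445209), the seryl-tRNA synthetase, had 213, 261, 245 and 173 CPM at 12 dpi and 591, 1172, 952 and 626 CPM at 90 dpi (log2 fold change 1.91 (SE 0.33, unadjusted p 2.21e-04, adjusted p 0.580)). Sympk, a scaffold of mRNA 3′ processing, had 19.4, 16.9, 37.5 and 29.0 CPM and 119, 184, 278 and 111 CPM (2.80 (SE 0.53, unadjusted p 4.20e-04, adjusted p 0.580)). For Sympk 29.6% of the counts came from 1 aliquot of set male 1 at 90 dpi, and the mean over aliquots of log2(CPM + 1) gave a difference of 1.29 (limma, unadjusted p 0.0600). Atp9a, a phospholipid flippase, had 106, 103, 56.1 and 126 CPM and 313, 407, 354 and 417 CPM (1.93 (SE 0.39, unadjusted p 6.73e-04, adjusted p 0.580)). In these 3 genes every later set was above every earlier one, and each was in at least 38 of 40 aliquots of each time. Tspan7, a tetraspanin, had 632, 640.4, 521 and 652 CPM and 221, 262, 148 and 225 CPM (-1.53 (SE 0.30, unadjusted p 5.29e-04, adjusted p 0.580)). Ppa1, the cytosolic pyrophosphatase, had 345, 304, 286 and 168 CPM and 81.7, 33.6, 56.9 and 56.8 CPM (-2.24 (SE 0.46, unadjusted p 7.02e-04, adjusted p 0.580)). Every later set of these 2 genes was below every earlier one.

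The second kind was detected in few aliquots. Tvp23a (ENSMUSG00000050908, chromosome 16, 10420557 to 10447362), a Golgi vesicle protein, had the smallest adjusted p, 0.0808 (unadjusted 5.67e-06). It had 17.5, 4.24, 179 and 142 CPM at 12 dpi and 0, 0, 0.0607 and 0 CPM at 90 dpi, from 15726 counts against 2, a ratio of 6248 with an exact 95% counting interval of 1729 to 51599.6. Those counts came from 6 of 40 aliquots at 12 dpi and 1 of 40 at 90 dpi, so the interval covers counting error and not the difference between aliquots. Dnah7a, an axonemal dynein, had 90.8, 73.5, 21.2 and 0.0427 CPM and 0, 0, 0 and 0.0323 CPM, from 6936 counts against 1 in 5 of 40 aliquots at 12 dpi and 1 of 40 at 90 dpi (ratio 5512, interval 988.9 to 217734; unadjusted p 8.25e-04). Crocc, of the ciliary rootlet, had 14.0, 5.76, 127 and 3.03 CPM and 0, 0.0256, 0.637 and 0.0969 CPM (-8.18 (SE 1.73, unadjusted p 8.78e-04, adjusted p 0.580)). Polr3a, of RNA polymerase III, had 16.8, 3.36, 18.4 and 229 CPM and 0.0530, 0.128, 2.73 and 0.581 CPM (-6.47 (SE 1.26, unadjusted p 4.99e-04, adjusted p 0.580)). One aliquot held 68.3% of all Crocc counts and one held 76.8% of all Polr3a counts. Pald1, a phosphatase, lay between the kinds, with 5.39, 147, 108 and 70.8 CPM and 2.15, 1.21, 3.34 and 1.39 CPM, detection in 31 of 40 aliquots at 12 dpi and 10 of 40 at 90 dpi and a log2 fold change of -5.38 (SE 1.11, unadjusted p 7.50e-04, adjusted p 0.580).

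**Figure D3:**
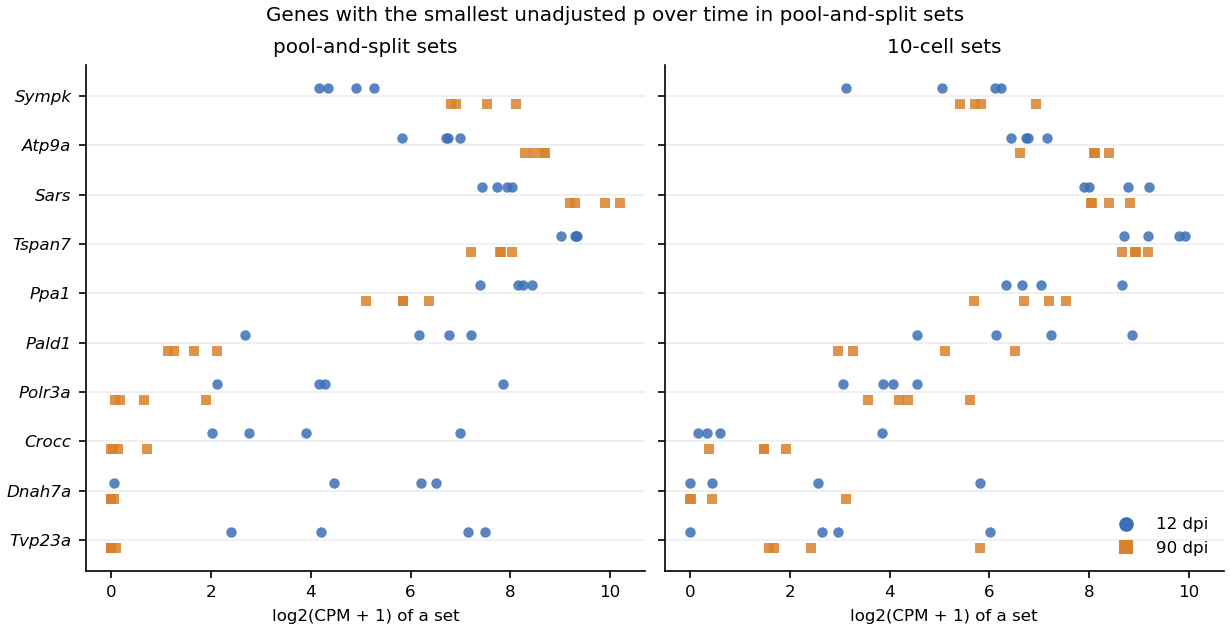
Log2(CPM + 1) per set of the 10 genes with the smallest unadjusted p over time in pool-and-split sets (left) and of the same genes in the 10-cell sets (right), with 12 dpi as blue circles and 90 dpi as orange squares. The values of the 2 times do not overlap for any of the 10 genes on the left, which were chosen there for their p, and overlap for all 10 on the right. For Dnah7a on the left the nearest sets of the 2 times nearly coincide, at 0.0427 and 0.0323 CPM.

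Most of the variance lay between aliquots of the same pool. For the 8563 genes detected in at least 50% of libraries, the variance of log2(CPM + 1) over the 80 libraries was divided into the part between times, between sets of a time and between aliquots of a set. The median gene had 1.30% between times, 8.81% between sets and 88.4% between aliquots. Without any structure the mean shares expected would be 1.27%, 7.59% and 91.1%, the shares of the 79 degrees of freedom. These are means, so the medians above cannot be set against them directly. Of the variance summed over all 8563 genes, 2.69% lay between times, 10.1% between sets and 87.2% between aliquots. The median standard deviation (SD) between aliquots was 2.36 on the log2 scale. In the 160 most abundant genes (mean of 9 or more on that scale) it was 0.899, and the shares of the summed variance were 6.15%, 14.4% and 79.5%. The spread between aliquots was alike at the 2 times: the set's median SD was 2.26 ± 0.0850 at 12 dpi and 2.21 ± 0.0781 at 90 dpi (SD, n = 4 sets; exact permutation p 0.457).

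**Figure D4:**
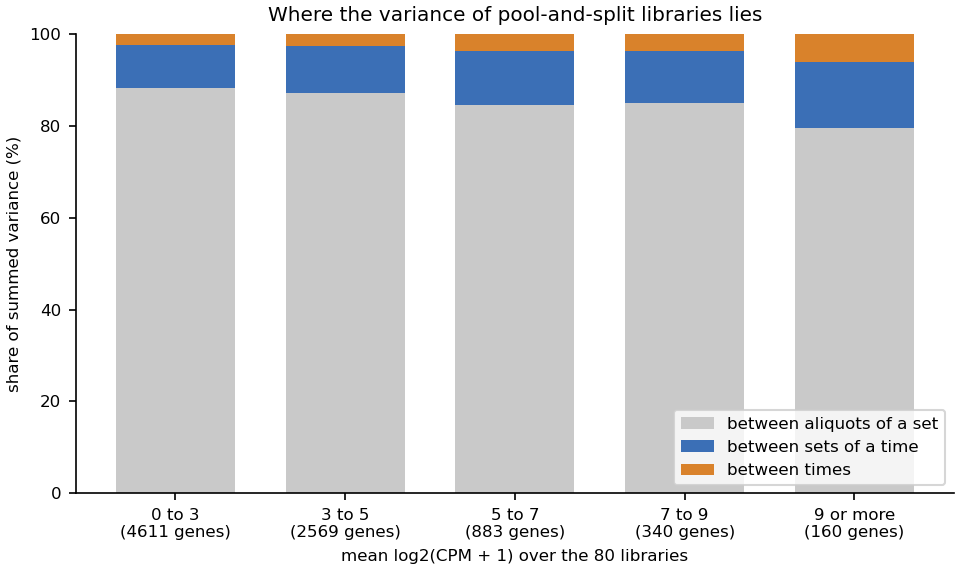
Share of the summed variance of log2(CPM + 1) (percent) that lies between times (orange), between sets of a time (blue) and between aliquots of a set (grey), for genes grouped by their mean over the 80 libraries. The share between aliquots is the largest in every group and goes from 88.2% in the lowest to 79.5% in the highest.

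Libraries of the 2 times overlapped little on the second principal component of the same genes. Pearson's r between 2 libraries over the 8563 genes had a median of 0.438 within a set, 0.426 between sets of 1 time and 0.412 between times. For 41 of the 80 libraries the median r was highest with the library's own set. All 10 libraries did so in sets male 1 and male 2 at 12 dpi and female 2 at 90 dpi. In female 2 at 12 dpi and in female 1 and male 1 at 90 dpi, 0 of 10 did so. The first principal component held 7.80% of the variance and followed the number of genes detected (r 0.987 over the 80 libraries). The second held 3.22%, and on it 37 of the 40 later libraries lay above the highest of the 40 earlier ones. Its scores also went with the library total within each time, with r of -0.43 at 12 dpi and -0.64 at 90 dpi, and totals were lower at 90 dpi, whose part in the separation was not tested. These r values describe libraries that share pools and have no p.

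The 10-cell libraries of the same set names and times, 56 at each time and 14 per set, and the 14 bulk mutant (CKO) animals, 7 at each time, give values to set beside the pools. In the 10-cell sets edgeR called 0 of 15190 genes, with 1111 (7.31%) at an unadjusted p under 0.05 and 675 called by DESeq2. In bulk it called 1 of 15604 genes, with 1155 (7.4%) at an unadjusted p under 0.05 and 37 called by DESeq2. The bulk call was Susd5, a hyaluronan-binding OPC gene, with a log2 fold change of 1.38 (SE 0.19, adjusted p 0.0277); it averaged 15.7 and 9.59 CPM in the pools, where its log2 fold change was -0.72 (SE 0.96, unadjusted p 0.473, adjusted p 0.907). The test of whether the change over time differed between pools and 10-cell sets, within set names, called 0 of 16835 genes, with 776 (4.61%) at an unadjusted p under 0.05 and 428 called by DESeq2.

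Some genes had the same direction in both kinds of small library. The 2 kinds share set names and times and may share animals, so they are not independent replicates of each other. Rpl7a had 656, 625, 492 and 459.9 CPM in the 12 dpi 10-cell sets and 198, 191, 260.2 and 184 CPM in the 90 dpi ones, again without overlap, a log2 fold change of -1.41 (unadjusted p 3.07e-04, adjusted p 0.519). Snap25 had 582, 867, 763 and 972 CPM and 478, 375, 437 and 318 CPM there (-0.98, unadjusted p 0.00310), also without overlap. Cldn11 and Atp9a had 10-cell log2 fold changes of 2.18 and 1.12 in edgeR (unadjusted p 0.0385 and 0.0226, adjusted p 0.641 and 0.636), and the 10-cell sets of both genes overlapped. In bulk mutant animals the log2 fold changes of Rpl7a, Snap25, Cldn11 and Atp9a were -0.11, 0.30, 0.09 and 0.03, each with an unadjusted p above 0.05.

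For other genes the values of the 2 kinds of library were not alike in direction, overlap or size, and none of these differences passed the threshold. Sars had 238, 254, 443 and 593 CPM and then 454, 266, 339.5 and 262 CPM in 10-cell sets, a log2 fold change of -0.12 against 1.91 in the pools; the test of that difference gave an unadjusted p of 0.00286 and an adjusted p of 1.00. Rpsa had 3673, 2941, 2607 and 2801 CPM and 2797, 2865, 2461 and 2789.7 CPM, which overlapped, and a difference of change of 1.02 (unadjusted p 2.80e-04, adjusted p 1.00). Atp5o had 1128, 1028, 876 and 1152 CPM and 841, 853, 821 and 719 CPM, lower at the later time without overlap where the pools were higher, and a difference of 1.32 (unadjusted p 5.38e-04, adjusted p 1.00). Tvp23a had 63.6, 5.26, 0 and 6.80 CPM and 1.99, 2.19, 55.5 and 4.34 CPM in 10-cell sets, with overlap, and a log2 fold change of -0.45 (unadjusted p 0.898), of the same sign as in the pools. Rpa1 had a log2 fold change of -1.41 in 10-cell sets (unadjusted p 0.366) against 4.71 in the pools.

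By list, the median log2 fold change of OPC markers was 0.49 in pools, -0.17 in 10-cell sets and 0.28 in bulk. For committed OPC genes the 3 medians were 1.27, 0.13 and 0.16, and for myelin genes 0.91, 2.20 and -0.09. The summed committed OPC level of the 10-cell sets ran from 162 to 673 CPM at 12 dpi and from 459 to 646 CPM at 90 dpi, an overlap that the pools did not have. Neuronal genes had medians of -0.24, -0.68 and 0.15, and their summed level in 10-cell sets, 3352 to 5122 CPM at 12 dpi and 2200.3 to 2879 CPM at 90 dpi, was again lower without overlap. Replication stress genes had medians of 0.80, 0.42 and -0.07. Their summed level in 10-cell sets, 210 to 343 CPM at 12 dpi and 166 to 305 CPM at 90 dpi, overlapped, with a lower median at the later time (256 and 228 CPM), where the sums of the pools were higher without overlap. Red blood cell genes had medians of -1.17 in pools and -2.09 in 10-cell sets and were all but absent in bulk, with at most 76.6 CPM summed over the list. Mitosis genes had medians of -1.47, -0.04 and -0.76. Over all genes tested in each kind the medians were -0.03, -0.04 and 0.02. On means over aliquots of log2(CPM + 1), the pool medians were 0.74 for OPC markers, 1.07 for committed OPC and 1.01 for myelin genes. They were -0.19 for neuronal, 0.18 for replication stress, -1.37 for red blood cell and -0.19 for mitosis genes, beside 0.06 over all tested genes.

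**Figure D5:**
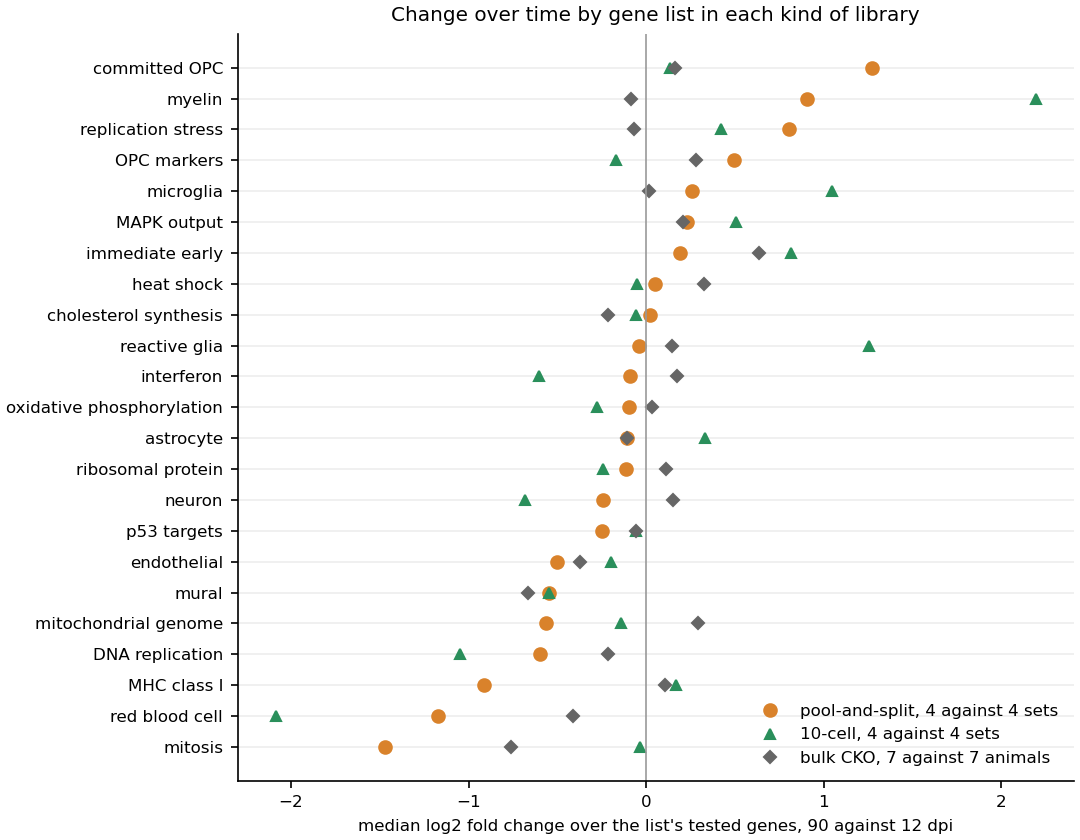
Median log2 fold change, 90 against 12 dpi, over the tested genes of each of the 23 lists in pool-and-split sets (orange circles, 4 against 4 sets), 10-cell sets (green triangles, 4 against 4) and bulk mutant animals (grey diamonds, 7 against 7). Committed OPC genes have the highest pool-and-split median, 1.27, and mitosis genes the lowest, -1.47. The 10-cell medians are 0.13 and -0.04. On means over aliquots of log2(CPM + 1), not drawn here, the pool-and-split medians of these 2 lists were 1.07 and -0.19. The lowest on that measure was that of red blood cell genes, -1.37.

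A last group of genes was present in nearly all aliquots of some sets and in nearly none of others. A gene was called present in a library at 1 CPM or more, and lower values above 0 count as not present. In 8 genes each set had the gene present in either at least 9 or at most 1 of its 10 aliquots, with sets of both kinds; 7 of the 8 are processed pseudogenes, copies of transcripts inserted into the genome. They were found by this pattern, so it is a description. Gm8730 (ENSMUSG00000063696, chromosome 8, 102864845 to 102865798) was present in 9, 10, 9 and 10 aliquots of the 12 dpi sets and in 0, 10, 0 and 1 of the 90 dpi sets, at 103, 163, 60.7 and 132 CPM and 0.132, 56.1, 0.0303 and 0.420 CPM. The later sets other than female 2 were at or below 0.420 CPM. Gm12892 (ENSMUSG00000083679, chromosome 4, 122008193 to 122009338) was present in 0, 0, 0 and 0 aliquots of the 12 dpi sets and in 10, 0, 10 and 9 of the 90 dpi sets. Gm13437 and Gm5575 reached 1 CPM in no aliquot of the female sets at 12 dpi and in all 10 aliquots of each of the other 6 sets. Gm13841 and Gm8210 are listed with identical values in every set, so the reads of these 2 copies cannot be told apart. The 10-cell libraries of the same set name and time, called present where at least 7 of 14 reached 1 CPM, were in the same state in 64 of 64 cases of gene and set, so both kinds of library shared this feature of their set. The 2 identical copies are counted separately in these cases. This cut is looser than that of the pools: Gm11942 reached 1 CPM in 4 of 14 10-cell libraries of set female 2 at 12 dpi and was called not present.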

How the data were processed

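Per the submitters' processing notes, reads were aligned to GRCm38 with Bowtie2 and counted per gene with RSEM, whose versions are not given in the sources used here. The authors deposited the result as 1 table of expected counts, with no scaling and with no library pooled. Expected counts need not be whole, and RSEM divides reads between similar copies, which touches ribosomal protein genes, globins and pseudogenes. Coordinates are those deposited in the table.

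The 92 ERCC rows were removed before totals were taken. Counts of the 10 aliquots of a set were added and rounded, since aliquots of a pool are not independent, and the 8 sums were tested in edgeR 4.0.16 (R 4.3.3): filterByExpr (minimum count 10, minimum total 15), TMM scaling, a term for sex, the quasi-likelihood F test, and Benjamini-Hochberg adjustment over all tested genes with a threshold of 0.05. SE is the log2 fold change divided by the square root of F. The same test was applied to 8 sets of 10-cell libraries and to 14 bulk mutant animals (18 libraries), and a joint fit with the set name and time as a block tested the difference of change. CPM of sets are per TMM-scaled total. Library measures were compared by two-sided exact permutation tests over 70 assignments. Aliquot values are log2(CPM + 1), with a pseudocount of 1, per library total. Fits were checked on simulated counts.

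Totals of 1.91 to 5.16 M counts per library leave mitotic and other rare genes at few aliquots, and intervals cover counting error only, since PCR reads are not independent molecules. No 2 of the 80 libraries held identical values. Named genes are the 2 deleted genes, 5 OPC genes, the 10 above-median genes of smallest unadjusted p (because fewer than 10 were called) and the 2 members of smallest p in each of 23 lists; Bcas1, Enpp6, Tmem163, Nkx2-2, Cnp, Mbp, Atrip and the genes present by set were named after their values were seen. Values of 2 list members are not reported here. The members and lists were chosen with earlier results of these data known. Alternatives were DESeq2 1.42.0, RLE size factors, other filters, no sex term, a replicate block, each library as a sample, limma 3.58.1 on set means and each set left out; 2 more were added after seeing the data. Wild-type and 150 dpi libraries were not used here.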

Additional observations from a re-analysis of the deposited data

Results flagged for a closer look

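In 7 of the 178 groups of 4 sets checked, 1 set stood apart from the other 3 by more of the group's range than a 95% limit for 4 values allows. Levels of genes and lists were compared as log2(CPM + 1) here, and the values below are in CPM. Chance alone does this in about 1 in 20 groups. Compared in CPM, 19 groups stood apart so, 6 of these 7 among them (Fosb did not). The largest gap over range among the other 13 was that of Nf1 in set female 2 at 12 dpi, at 239 CPM. Fosb had 0.406 CPM in set male 2 at 12 dpi against 4.17 to 5.13 in the other sets of that time. Tspan7 had 521 CPM in male 1 at 12 dpi against 632 to 652. Atp5o had 1378 CPM in male 2 at 90 dpi against 1217 to 1230.4. The other 4 were single sets above 0 at 90 dpi where the remaining sets had 0: Cdc20 with 1.79 CPM and Ccnb1 with 0.0513 CPM, both in female 2, Tvp23a with 0.0607 CPM in male 1 and Dnah7a with 0.0323 CPM in male 2. The times of Tspan7 and Atp5o do not overlap with or without these sets.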

How the results depend on the processing

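The count of called genes over time, 0 in edgeR, was also 0 under RLE size factors, without the sex term, with the robust spread, in protein-coding genes alone, in limma on set means (1536 at an unadjusted p under 0.05) and in each of the 8 fits without 1 set. It was 1 with no filter on low counts and 1 with a mean of at least 10 CPM, both for Tvp23a (adjusted p 0.0349 and 0.0298). DESeq2 called 953, DESeq2 on the genes of the edgeR fit 598 (added after seeing the data) and each library as a sample 336, a setting that counts aliquots of a pool as independent. DESeq2 also called 675 genes in 10-cell sets, 37 in bulk and 428 for the difference of change, against 0, 1 and 0 in edgeR; the cause was not tested. A replicate block of sex and number left 0 calls (smallest adjusted p 0.392, with 922 genes at an unadjusted p under 0.05 against 1128). The labels do not say that the numbers pair the times, and same-numbered sets did not deviate together (r -0.0218, -0.0345, -0.00484 and -0.0220). The difference of change without the replicate block gave 0 calls.

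Among 62 named genes under all settings, 1132 of 1206 values kept their direction and side of the threshold, 64 passed it in an alternative (43 in DESeq2, 19 with each library as a sample, and Tvp23a in the 2 fits above) and 10 turned sign, in 3 genes. The log2 fold change of Nf1 became 0.16 with the replicate block, 0.21 in limma and 1.66 without libraries of under 7000 genes (added after seeing the data), and ran from -3.35 to 1.29 with 1 set left out; the positive value was without set female 2 at 12 dpi. Cspg4 became -0.0938 with each library as a sample and ran from -0.22 to 0.37 with 1 set left out, and Pdgfra from -0.0685 to 0.95. The difference in total count ran from -1.01 to -0.766 M with 1 set left out, with an exact permutation p of 0.0571 in 5 of the 8 cases. Genes detected, the ERCC share and the spread between aliquots stayed on their side of the threshold under the alternatives run.

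The spread between sets had a common coefficient of variation of 1.13 in edgeR and 0.975 with a mean of at least 10 CPM. At this spread and depth, a gene that missed the threshold is not shown to be alike at the 2 times, and no limit of detection is given here.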

Other observations

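Genes were ranked by the share of their aliquot variance that lay between the times or between sets, so the genes named here were chosen after their values were seen. Apoe, the lipid carrier made by astrocytes and microglia, had 44.0% of its variance between times, in a table where the median gene had 1.30%. Its levels were 904, 2328, 2463 and 1399 CPM in the 12 dpi sets (female 1, female 2, male 1, male 2) and 4542, 2499.9, 4142 and 4998 CPM in the 90 dpi sets, which did not overlap. The log2 fold change was 1.18 (SE 0.33, adjusted p 0.580 in edgeR), against 0.73 in 10-cell sets (adjusted p 0.575) and -0.09 in bulk (adjusted p 0.927). Chek2, a kinase of the DNA damage response, was detected in every aliquot and had 30.3, 34.8, 24.4 and 25.2 CPM against 64.1, 107.0, 83.1 and 71.8 CPM, with 45.6% of the variance between times and a log2 fold change of 1.52 (SE 0.56, adjusted p 0.601). Glipr1, a gene named for its relation to glioma pathogenesis, had 11.3, 24.0, 9.32 and 16.1 CPM against 53.2, 78.5, 42.5 and 50.3 CPM, a log2 fold change of 1.88 (SE 0.70, adjusted p 0.601). In these 3 genes every later set was above every earlier one and none passed the threshold.

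Other genes separated sets within a time. Cd74, the invariant chain of MHC class II, had 627 and 501 CPM in the male sets at 90 dpi against 16.4 and 46.9 CPM in the female sets, and 0 to 117.6 CPM at 12 dpi. C4b, a complement component, was also highest in set male 1 at 90 dpi, at 928 CPM, with 562 CPM in male 2 and 568 CPM in female 1 at 12 dpi. Reln, which encodes the secreted protein reelin, and Cdhr1, a cadherin-related gene, were nearly missing from set female 1 at 12 dpi (2.02 and 0.874 CPM) and stood at 57.9 to 233 and 42.2 to 316 CPM in the other 7 sets. Rps2, a ribosomal protein gene with many pseudogene copies, had 1.21 and 1.74 CPM in the male sets at 90 dpi and 203 to 581 CPM in the other 6. None of these 5 genes passed the threshold between times (adjusted p from 0.761 for Rps2 to 0.987 for Reln in edgeR).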
